A study of Mus musculus with 12 samples.

Results

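Transcripts of 10 genes grouped here under primordial germ cells were followed across 12 mouse teratomas formed by embryonic stem (ES) cells that carried different Dnmt3L constructs. Some of the 10 act at later germ cell stages or in other cells, as described below. The genes are Prdm1, Tfap2c, Dppa3, Nanos3, Dnd1, Dazl, Sohlh2, Kitl, Kit and Nectin3, chosen by name from the 38986 gene symbols listed in each library, and all 10 passed the filter on low counts that left 18405 genes for testing. The R1 mouse ES cells were infected with a lentivirus in which a CAG promoter, active in most cell types, drives the insert, and puromycin-selected stable lines were kept in serum with LIF. The 4 groups are ET (the empty vector, the control), WT (wild-type Dnmt3L without a tag), and K238R and K412R (Dnmt3L in which a lysine that can be acetylated is replaced by arginine), with 3 teratomas per group and 1 RNA-seq library per teratoma. In every group 5000000 cells were placed under the skin of 8-week-old male immunodeficient NOD-Prkdc EM1 mice, and the teratomas were collected at day 21. Such a teratoma is a mixture of tissues grown from the ES cells and of host vessels, stroma and blood, and nothing in the labels says whether the 3 teratomas of a group came from more than 1 stable line, so the p-values below measure the spread between these 12 samples alone. In bulk RNA, fewer cells of a type and less RNA per cell cannot be told apart.

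Primordial germ cells are the founders of eggs and sperm. In the mouse embryo they are set apart from the epiblast by BMP signals through a small set of transcription factors (Prdm1, Prdm14 and Tfap2c), migrate through the hindgut to the gonads under the control of the Kit receptor and its ligand, and are protected by RNA-binding proteins that prevent a somatic fate or cell death. Many genes that switch on when germ cells reach the gonad, Dazl among them, have CpG-rich promoters that carry DNA methylation in somatic tissues. Dnmt3L has no methyltransferase activity of its own and assists Dnmt3A and Dnmt3B in placing that methylation.

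The RefSeq table of mouse promoters (build GRCm38.p6) held 7 of the 10 genes. Dppa3, Tfap2c and Dnd1 had no entry. The 250 bases before the start of transcription are given for 4 genes, those with the largest differences between groups among the 7 with an entry. For contrast they are also given for Prdm1, whose level hardly moved. They are written 5′ to 3′ along the gene, with each CpG dinucleotide, whose cytosine Dnmt3 enzymes methylate, in capitals.
Dazl, chr17:50293621-50293870, minus strand: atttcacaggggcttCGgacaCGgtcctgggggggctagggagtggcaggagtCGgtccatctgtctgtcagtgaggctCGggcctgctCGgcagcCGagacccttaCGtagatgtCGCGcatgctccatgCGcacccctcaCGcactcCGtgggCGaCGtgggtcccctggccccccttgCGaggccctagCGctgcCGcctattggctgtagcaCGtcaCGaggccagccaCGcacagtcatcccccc
Sohlh2, chr3:55181794-55182043, plus strand: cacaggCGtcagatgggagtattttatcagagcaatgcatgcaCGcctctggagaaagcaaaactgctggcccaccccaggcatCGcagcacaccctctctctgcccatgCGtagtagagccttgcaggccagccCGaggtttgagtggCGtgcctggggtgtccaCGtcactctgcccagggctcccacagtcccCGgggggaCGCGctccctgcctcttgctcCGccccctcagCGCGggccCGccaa
Kitl, chr10:100015571-100015820, plus strand: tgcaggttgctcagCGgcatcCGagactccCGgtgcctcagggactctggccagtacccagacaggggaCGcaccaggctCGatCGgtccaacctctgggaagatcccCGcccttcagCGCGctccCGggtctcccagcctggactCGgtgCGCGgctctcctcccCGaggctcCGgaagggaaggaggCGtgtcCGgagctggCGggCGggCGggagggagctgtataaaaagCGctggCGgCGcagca
Nectin3, chr16:46496968-46497217, minus strand: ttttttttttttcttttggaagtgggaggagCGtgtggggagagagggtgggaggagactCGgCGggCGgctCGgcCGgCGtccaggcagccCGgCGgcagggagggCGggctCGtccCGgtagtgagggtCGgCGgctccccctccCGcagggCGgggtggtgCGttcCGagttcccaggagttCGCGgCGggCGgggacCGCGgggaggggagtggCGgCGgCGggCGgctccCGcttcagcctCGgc
Prdm1, chr10:44458749-44458998, minus strand: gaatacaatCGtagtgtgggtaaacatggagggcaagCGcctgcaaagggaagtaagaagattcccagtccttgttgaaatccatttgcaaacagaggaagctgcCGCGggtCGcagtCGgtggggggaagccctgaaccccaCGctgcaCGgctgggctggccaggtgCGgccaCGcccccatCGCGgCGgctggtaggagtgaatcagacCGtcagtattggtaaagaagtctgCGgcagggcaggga
The Nectin3 window held 30 CpG, at percentile 94.4 of the 32851 promoter windows in the table (ties at their mean rank). The median of these windows was 6. Kitl had 23, Dazl 20, Prdm1 15 and Sohlh2 14. Of the genes not printed, Kit had 17 and 18 in windows at 2 neighbouring starts and Nanos3 had 3. Kit and Prdm1, whose levels are described below as steady, had more CpG in this window than Sohlh2 and fewer than Dazl, Kitl and Nectin3. Whether CpG content bears on the levels was not tested. The letters CACGTG, the E-box that Max and Mga bind, occurred in none of the 7 genes and in 6.02% of all windows. The letters TCCCGC or their complement GCGGGA, an E2F site, occurred in Kit, Kitl and Nectin3 and in 16.9% of all windows. The windows were read on both strands, and these matches describe letters only: neither methylation nor factor binding was measured in these teratomas.

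Library totals were between 16957677 and 18546100 estimated counts, so depth differed little, and levels are given as CPM, the count of a gene scaled by the library total. Counting error sets a limit for the scarce genes: Dppa3 was read with 2 to 81 counts per library, Dnd1 with 7 to 57 and Nanos3 with 11 to 33. Dnmt3l itself was read first, since it checks the labels. Its counts were 39, 11 and 137 in ET against 2941, 3643 and 3581 in WT, with 35, 20 and 10 for the libraries labelled K238R and 699, 677 and 463 for K412R. The libraries labelled K238R thus held no more Dnmt3l transcript than ET (-1.59 ± 0.70 on the log2 scale, with the standard error after ±; adjusted p = 0.805 by edgeR's quasi-likelihood test), which goes against their label, and they are called the libraries labelled K238R throughout. WT exceeded ET (5.78 ± 0.60, adjusted p = 0.0114), a call lost with adjusted p values of 0.111, 0.0645 and 0.0624 when ET replicate 1, WT replicate 2 or WT replicate 3 was left out. K412R held 5.60 times less than WT (-2.49 ± 0.49, adjusted p = 0.033). That call was lost without ET replicate 1 (adjusted p = 0.0526), WT replicates 2 or 3 (adjusted p = 0.111 and 0.142) or any of K412R replicates 1, 2 and 3 (adjusted p = 0.134, 0.0838 and 0.149).

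Libraries did not group cleanly by label. Over the 500 most variable genes, with distance as the root mean square of the differences in log2 CPM, ET replicate 2 was nearest to WT replicate 1 and the reverse (1.07 apart), and in all 5 of the 12 libraries were nearest to one of their own group. The mean distance to the own group ranged from 1.04 to 1.89, with 1.72 for ET replicate 2, 1.68 for WT replicate 1 and the largest value for replicate 3 of the libraries labelled K238R. The 3 libraries labelled K238R were each nearest to an ET library, and the 3 K412R libraries to one another. For Dazl, Sohlh2, Dppa3, Tfap2c, Dnd1, Kitl and Nectin3, ET replicate 2 was the lowest ET library and WT replicate 1 the highest WT library, while Prdm1, Kit and Nanos3 had another order. For those 7 genes a fit without either library had to give a larger difference between ET and WT. A fit without WT replicate 1 likewise had to enlarge the excess over WT of the libraries labelled K238R and of K412R. The calls gained that way thus show how far a call turns on 1 library and add no support to it.

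Prdm1, the transcriptional repressor that starts the germ cell programme and also acts in skin, gut and plasma cells, was steady. Its CPM was 8.24, 7.61 and 8.28 in ET against 7.42, 5.35 and 8.39 in WT, with 9.11, 7.22 and 8.03 for the libraries labelled K238R and 10.5, 6.95 and 8.14 for K412R. All groups overlapped, and the log2 fold changes were -0.16 ± 0.20 (standard error) for WT against ET, 0.16 ± 0.20 for the libraries labelled K238R against WT and 0.26 ± 0.20 for K412R against WT. The highest library held 1.97 times the lowest.

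Tfap2c, an AP-2 factor of the same specification network that trophoblast and skin also use, was lowest in WT. It stood at 4.15, 3.42 and 8.12 CPM in ET and at 3.37, 1.90 and 1.65 in WT, so that each WT library lay under each ET library, though WT replicate 1 only just. The libraries labelled K238R held 7.82, 3.06 and 3.53, and K412R 3.84, 3.39 and 5.84. WT against ET gave a log2 fold change of -1.17 ± 0.44 (unadjusted p = 0.0219, adjusted p = 0.128, edgeR). With 1 library left out at a time it ranged from -1.52 to -0.68, lowest in size without ET replicate 3, and was called only without ET replicate 2 (-1.39, adjusted p = 0.0378). K412R lay above WT in every library (0.89 ± 0.44, adjusted p = 0.25), while the libraries labelled K238R overlapped WT (1.02 ± 0.44, adjusted p = 0.265).

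Dppa3, also known as Stella, protects methylation in the early embryo and marks both primordial germ cells and naive ES cells. It was read at 2.22, 0.767 and 4.50 CPM in ET against 1.24, 0.167 and 0.114 in WT, with 1.62, 1.89 and 0.271 for the libraries labelled K238R and 0.724, 1.47 and 0.617 for K412R. The order of the means was ET, libraries labelled K238R, K412R and WT, and every pair of groups overlapped. WT against ET gave -2.29 ± 0.90 on the log2 scale (adjusted p = 0.136). It shrank to -1.53 (adjusted p = 0.464) without ET replicate 3 and was called without ET replicate 2 (-2.70, adjusted p = 0.0347) or without WT replicate 1 (-4.05, adjusted p = 0.0484).

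Among the RNA-binding proteins, Nanos3, needed for the survival of migrating germ cells, was scarce and gave no difference that could be told from its spread. Its range was 0.778 to 1.88 CPM in ET, 0.613 to 1.08 in WT, 1.03 to 1.72 in the libraries labelled K238R and 0.724 to 1.19 in K412R. Its log2 fold change was -0.42 ± 0.40 for WT against ET, 0.50 ± 0.40 for the libraries labelled K238R against WT and 0.17 ± 0.41 for K412R against WT.

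Dnd1, a protein that shields germ cell messages from microRNAs, stood at 1.99, 1.47 and 3.17 CPM in ET against 1.86, 0.892 and 0.399 in WT, with 2.64, 1.56 and 2.44 for the libraries labelled K238R and 2.34, 2.43 and 2.25 for K412R. The K412R libraries lay close together and above all WT libraries, with a log2 fold change of 1.15 ± 0.45 (adjusted p = 0.167). WT against ET was -1.06 ± 0.46 (adjusted p = 0.153). The libraries labelled K238R against WT gave 1.04 ± 0.45 (adjusted p = 0.269). WT against ET lay between -1.73 without WT replicate 1 and -0.69 without WT replicate 3, and both it and K412R against WT (1.81) were called without WT replicate 1 (adjusted p = 0.0472 and 0.0455). Exons of Dnd1 overlap those of Wdr55 on the other strand in the GENCODE annotation of build GRCm38, and the sources used here do not say whether the counting used strand, so part of these counts may belong to Wdr55.

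Dazl, the RNA-binding protein that licenses germ cells for sexual differentiation after they reach the gonad, varied more than any of the others, with 152 times more CPM in the highest library than in the lowest. Its counts were 443, 53 and 611 in ET against 70, 4 and 10 in WT, with 162, 214 and 258 for the libraries labelled K238R and 58, 139 and 78 for K412R. As CPM this was 25.2, 3.13 and 34.0 in ET against 3.94, 0.223 and 0.571 in WT, with 8.74, 11.9 and 14.0 for the libraries labelled K238R and 3.23, 7.86 and 4.38 for K412R. ET replicate 2 lay below WT replicate 1, so ET and WT overlapped, while all libraries labelled K238R lay above all WT libraries and K412R overlapped WT.

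The group means of Dazl were 13.1-fold lower in WT than in ET (log2 fold change -3.71 ± 0.91, unadjusted p = 0.00157, adjusted p = 0.101, edgeR). They were 7.15-fold higher in the libraries labelled K238R than in WT (2.84 ± 0.90, adjusted p = 0.161) and 3.27-fold higher in K412R than in WT (1.71 ± 0.90, adjusted p = 0.277). With 1 library left out at a time, WT against ET ranged from -5.65 to -3.14. It was called without ET replicate 2 (-4.21, adjusted p = 0.00469) or WT replicate 1 (-5.65, adjusted p = 0.0321), and the libraries labelled K238R against WT were called without ET replicate 2 (2.84, adjusted p = 0.0348).

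Sohlh2, a helix-loop-helix transcription factor of spermatogonia and of the first oocytes, had the same order of means as Dazl. It stood at 47.5, 7.49 and 62.5 CPM in ET against 8.83, 2.68 and 4.39 in WT, with 28.6, 29.4 and 35.2 for the libraries labelled K238R and 11.6, 23.8 and 19.3 for K412R. The libraries labelled K238R and those of K412R all lay above every WT library, and the libraries labelled K238R lay above those of K412R in every library. ET replicate 2 again fell within the range of WT.

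The log2 fold change of Sohlh2 was -2.87 ± 0.64 for WT against ET (adjusted p = 0.101), 2.51 ± 0.63 for the libraries labelled K238R against WT (adjusted p = 0.104) and 1.77 ± 0.63 for K412R against WT (adjusted p = 0.133). WT against ET ranged from -3.43 to -2.34 with 1 library left out at a time. All 3 comparisons were called without ET replicate 2 (adjusted p = 0.00173, 0.00491 and 0.018), and WT against ET without WT replicate 1 (adjusted p = 0.0382).

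**Figure D1:**
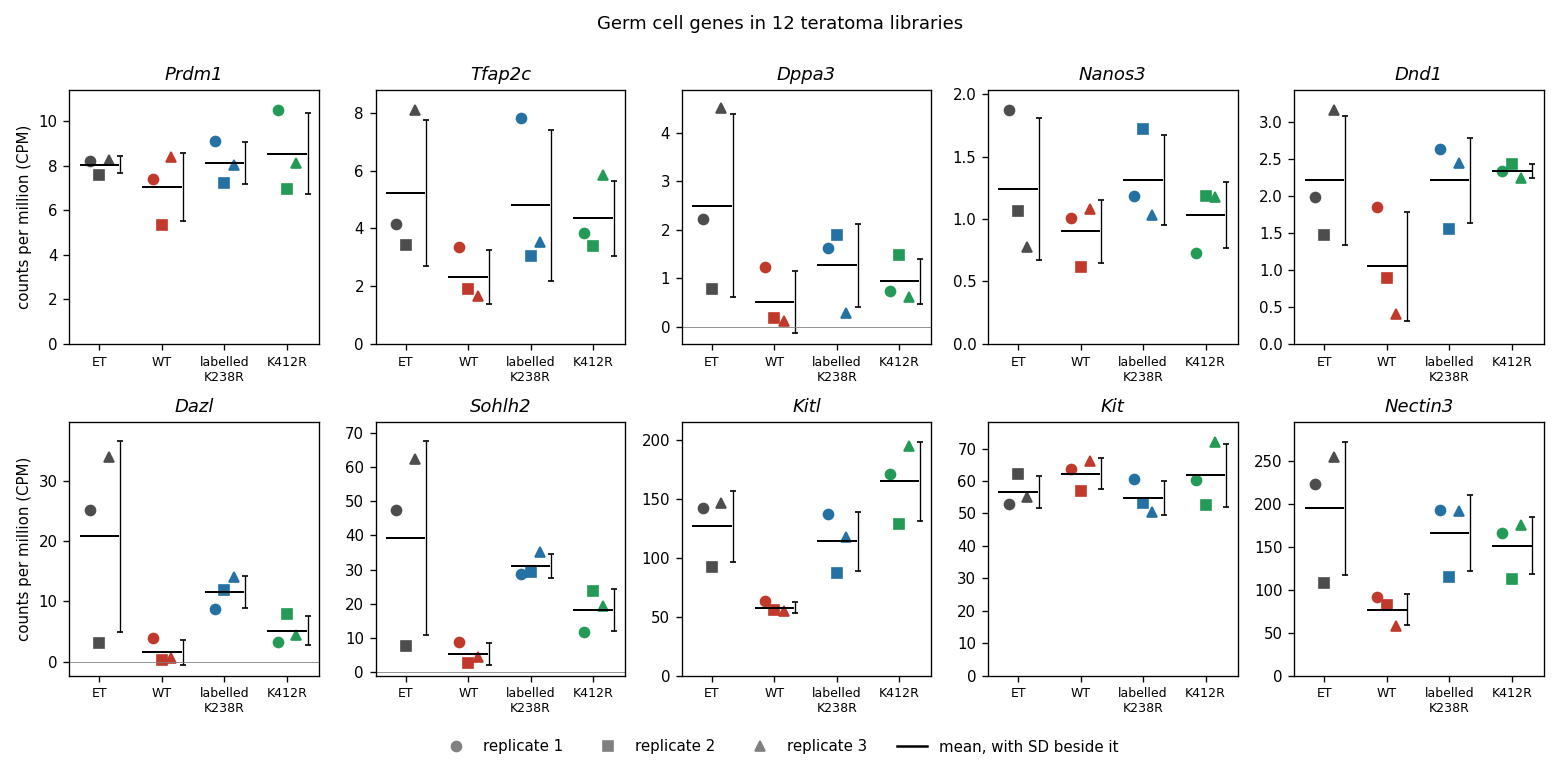
Level of each gene in each library, in CPM on a linear axis, with a point per teratoma, a horizontal line at the group mean and a bar of 1 SD on each side (n = 3). Dazl and Sohlh2 in ET replicate 2 (squares, 3.13 and 7.49 CPM) sit apart from the other ET libraries, the WT points of Kitl and Nectin3 lie under those of the other groups, and Kit and Prdm1 are level.

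Kitl, the Kit ligand (stem cell factor) that somatic cells present to migrating germ cells, melanocyte precursors and blood stem cells, gave the most regular separation. Its CPM was 142, 91.9 and 146 in ET against 63.1, 55.6 and 54.8 in WT, with 137, 87.3 and 118 for the libraries labelled K238R and 171, 129 and 195 for K412R. All 9 libraries of the other groups lay above all 3 of WT, whose SD was 4.61 CPM around a mean of 57.8.

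K412R exceeded WT 2.81-fold (log2 fold change 1.49 ± 0.20, adjusted p = 0.00979, edgeR), and this was the only call at an adjusted p under 0.05 for any of the 10 genes in the 6 comparisons. With 1 library left out at a time it held in 9 of 12 fits, with log2 fold changes of 1.40 to 1.62, and was lost without WT replicate 3 (1.47, adjusted p = 0.0565), K412R replicate 1 (1.44, adjusted p = 0.0597) or K412R replicate 3 (1.40, adjusted p = 0.0549). Kitl was lower in WT than in ET (-1.11 ± 0.20, adjusted p = 0.0882) and higher in the libraries labelled K238R than in WT (0.93 ± 0.20, adjusted p = 0.086) without passing that threshold. WT against ET lay between -1.29 and -0.98 with 1 library left out at a time. It was called without ET replicate 2 (adjusted p = 0.00275) or WT replicate 1 (adjusted p = 0.0358), and the libraries labelled K238R against WT were called without ET replicate 2 (adjusted p = 0.0104).

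Kit, the receptor tyrosine kinase for this ligand, did not follow it. It was read at 52.8, 62.3 and 55.0 CPM in ET against 63.7, 56.9 and 66.2 in WT, with 60.6, 53.3 and 50.5 for the libraries labelled K238R and 60.3, 52.7 and 72.1 for K412R. The highest library held 1.43 times the lowest, and every pair of groups overlapped. The log2 fold changes were 0.16 ± 0.12 for WT against ET, -0.23 ± 0.12 for the libraries labelled K238R against WT and -0.04 ± 0.12 for K412R against WT. Across the 12 libraries Pearson's r between Kit and Kitl was -0.06 on log2(CPM + 0.5).

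Nectin3, an immunoglobulin-like adhesion protein that pairs with nectins of the neighbouring cell, as between Sertoli cells and spermatids, was lowest in WT. It stood at 223, 108 and 255 CPM in ET against 91.9, 82.0 and 57.6 in WT, with 193, 115 and 191 for the libraries labelled K238R and 166, 113 and 176 for K412R. All WT libraries lay under all libraries of the other groups, with replicate 2 the lowest of each of those groups.

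The log2 fold change of Nectin3 was -1.32 ± 0.31 for WT against ET (adjusted p = 0.101), 1.07 ± 0.30 for the libraries labelled K238R against WT (adjusted p = 0.13) and 0.96 ± 0.30 for K412R against WT (adjusted p = 0.105). Without ET replicate 2, all 3 were called (-1.61, 1.07 and 0.97, adjusted p = 0.00377, 0.0212 and 0.0244), and without WT replicate 1, WT against ET was (-1.45, adjusted p = 0.0445). The smallest value of WT against ET with 1 library left out was -1.07, without ET replicate 3.

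**Figure D2:**
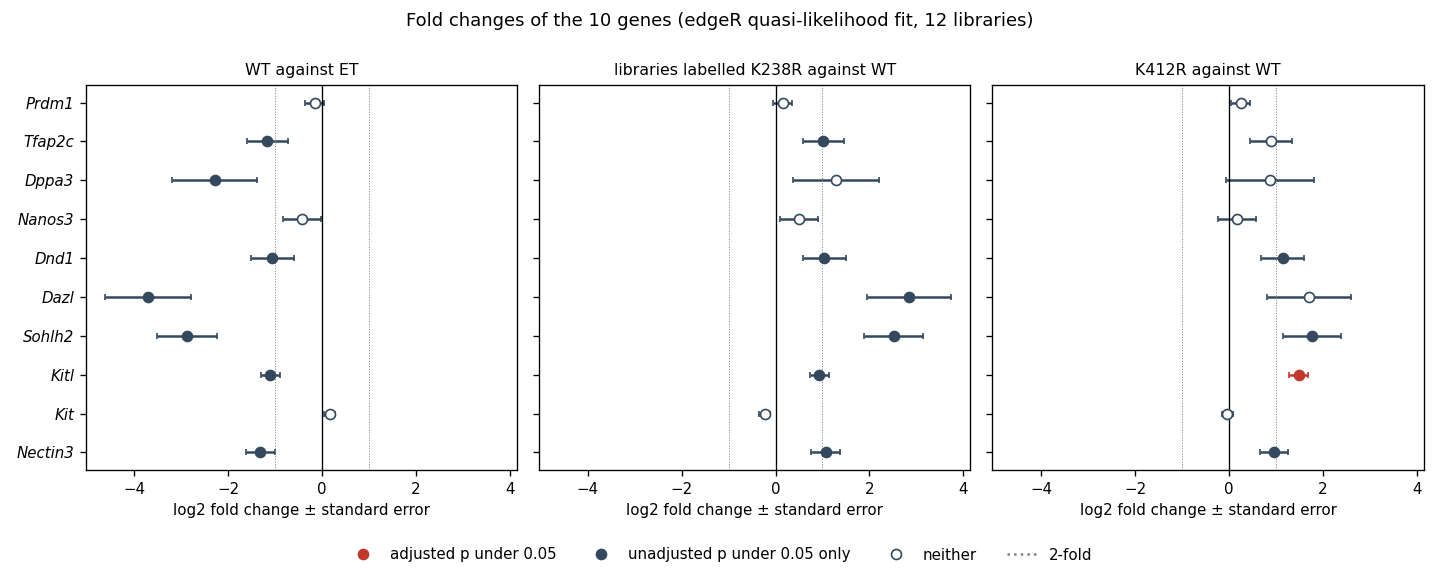
Log2 fold change of each gene (horizontal axis, with bars of 1 standard error) in the 3 comparisons with WT, from the edgeR fit of all 12 libraries; filled points have an unadjusted p under 0.05 and the red point an adjusted p under 0.05. Of the 10 genes, 9 lie left of 0 in WT against ET and 9 lie right of 0 in each of the other comparisons, and Kitl in K412R against WT (1.49) is the only red point.

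Counted together in WT against ET, none of the 10 genes passed an adjusted p under 0.05 (edgeR), where 0.0489% of all genes did. Unadjusted p under 0.05 was reached by 7 of them, against 29.1% of all genes, and DESeq2's Wald test called 4 (Dazl, Kitl, Nectin3 and Sohlh2), against 10.3%. The criterion the study stated for its own comparisons, at least 2-fold with an unadjusted p under 0.05, was met by 7 genes, all lower in WT, against 6.08% of all genes in either direction and 2.78% lower. These were Dazl, Sohlh2, Dppa3, Nectin3, Tfap2c, Kitl and Dnd1. The median log2 fold change was -1.14 over the 10 genes and -0.01 over all genes tested. Every WT library lay under every ET library for Tfap2c, Kitl and Nectin3, and this was so for 11.4% of all genes.

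For the libraries labelled K238R against WT, none of the 10 passed the adjusted threshold, where 0.174% of all genes did; 6 had an unadjusted p under 0.05 (17.6% of all genes) and DESeq2 called 3 (Kitl, Nectin3 and Sohlh2; 4.27%). The 2-fold criterion was met by 5, all higher, namely Dazl, Sohlh2, Nectin3, Dnd1 and Tfap2c, against 5.28% of all genes and 1.68% higher. Dazl, Sohlh2, Kitl and Nectin3 were higher in every library, as were 12.7% of all genes. The median log2 fold change was 1.03 against 0.00 over all genes.

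In K412R against WT, 1 of the 10 genes, Kitl, passed the adjusted threshold, against 2.02% of all genes. An unadjusted p under 0.05 was reached by 4 (22.8% of all genes), and DESeq2 called Kitl and Nectin3 (9.0%). The 2-fold criterion was met by 3, all higher (Kitl, Sohlh2 and Dnd1), against 5.05% of all genes and 1.66% higher. Every K412R library exceeded every WT library for Kitl, Sohlh2, Nectin3, Tfap2c and Dnd1, where 14.4% of all genes did so. The median log2 fold change was 0.93 against 0.01.

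These 3 comparisons share the WT libraries, so a low value in WT enters each of them. The study lists qRT-PCR primers for Dazl, Sohlh2, Kitl and Nectin3, so the choice of some of them may rest on these teratomas. The paper also reports Dazl in its ES cell cultures and Sohlh2 in differentiating ES cells (embryoid bodies). The counts of these 4 genes are not taken as independent evidence of a direction. The other 6 genes were also chosen with earlier results of these data known, so their counts are no independent evidence either. Of these 6, the 2-fold criterion was met by 3 in WT against ET (Dppa3, Tfap2c and Dnd1), all lower (2.78% of all genes). It was met by 2 in the libraries labelled K238R against WT (Dnd1 and Tfap2c), both higher (1.68%). In K412R against WT 1 met it (Dnd1), higher (1.66%). The median log2 fold change of these 6 genes was -0.74, 0.76 and 0.57 in the same order.

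The genes past the adjusted threshold numbered 6 in WT against ET, 4 in the libraries labelled K238R against WT and 3 in K412R against WT without ET replicate 2, and 6, 0 and 2 without WT replicate 1. Without both, the numbers were 7, 5 and 5, an increase fixed in part by leaving out the lowest ET and the highest WT library of 7 of the genes. By the 2-fold criterion, WT against ET fell to 3 genes (Dazl, Nectin3 and Sohlh2) without ET replicate 3 and to 4 (Dazl, Kitl, Nectin3 and Sohlh2) without WT replicate 2 or WT replicate 3. The libraries labelled K238R against WT fell to 2 (Dazl and Sohlh2) without WT replicate 3 or replicate 1 of the libraries labelled K238R, and to 3 without WT replicate 2 or replicate 3 of the libraries labelled K238R. K412R against WT rose to 7 without WT replicate 1, the highest WT library of these 7 genes, so that rise was fixed in part. The count fell to 2 without WT replicate 2, WT replicate 3, K412R replicate 1 or K412R replicate 2.

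**Figure D3:**
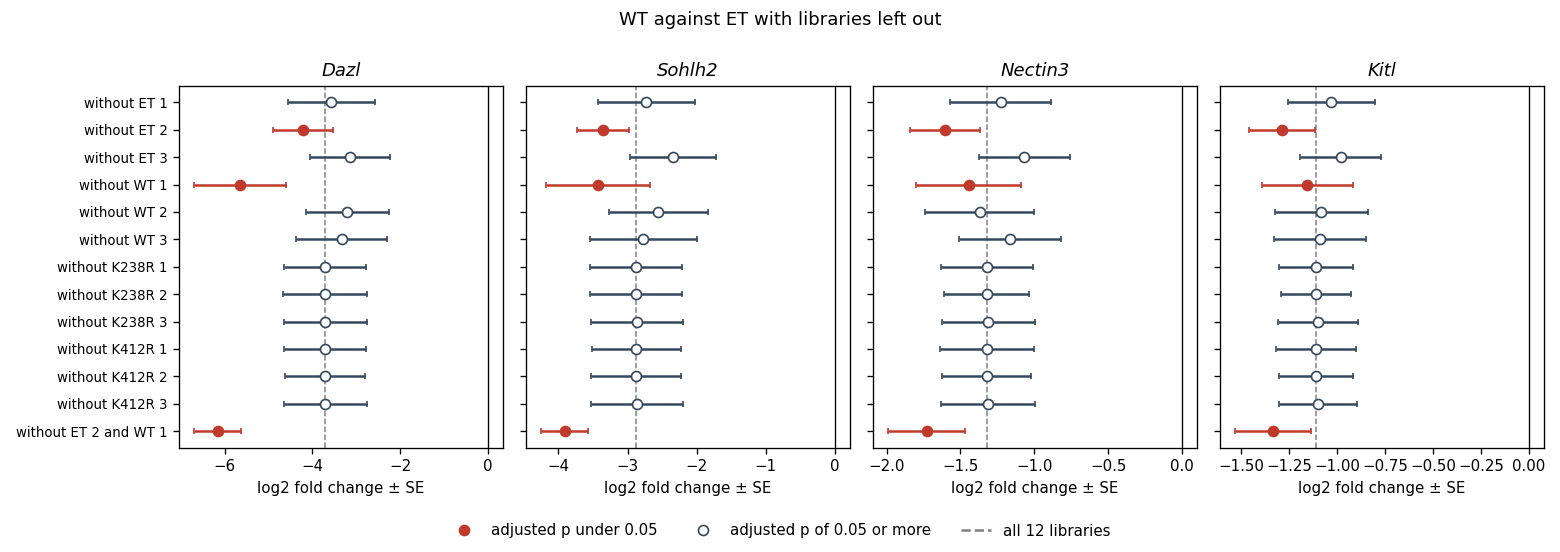
Log2 fold change of WT against ET for Dazl, Sohlh2, Nectin3 and Kitl (horizontal axes, each with its own scale, bars of 1 standard error) with each library left out in turn and with ET replicate 2 and WT replicate 1 left out together; the dashed line is the value from all 12 libraries. The points are filled, at an adjusted p under 0.05, in the fits without ET replicate 2 (Dazl -4.21) or without WT replicate 1 (Dazl -5.65), and without both (Dazl -6.15); these are the lowest ET and the highest WT library for all 4 genes, so those fits had to lie further from 0.

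Between the groups other than WT the genes differed less. In the libraries labelled K238R against ET, none of the 10 genes had an unadjusted p under 0.05 by edgeR, and none was called by edgeR or DESeq2 after adjustment; 5.58% of all genes had such an unadjusted p, 0% passed edgeR's adjusted threshold and 0.0761% that of DESeq2. In K412R against ET, only Dazl had an unadjusted p under 0.05 (7.86% of all genes), and its mean was 4.01-fold lower in K412R (adjusted p = 0.589). No gene of the 18405 passed the adjusted threshold (0%), and DESeq2 called none of the 10 (0.489% of all genes). In K412R against the libraries labelled K238R, 0.0217% of all genes and none of the 10 passed, nor did any by DESeq2 (2.03% of all genes). Kitl was higher in K412R (0.55 ± 0.20, unadjusted p = 0.0163, adjusted p = 0.292), the only one of the 10 with an unadjusted p under 0.05 (11.9% of all genes). Dazl (-1.13 ± 0.81) and Sohlh2 (-0.74 ± 0.58) were lower in all K412R libraries than in all libraries labelled K238R, as were 10.2% of all genes.

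Several of the 10 genes varied together from library to library. Dazl and Sohlh2 had a Pearson r of 0.98 over the 12 libraries on log2(CPM + 0.5), and of 0.96 after the group means were subtracted. Kitl and Nectin3 had 0.86, and 0.93 within groups, while Dazl and Kitl had 0.63, and 0.44 within groups. Over the 12 libraries Nectin3 was about as close to Dazl (0.82), Sohlh2 (0.85) and Dnd1 (0.86) as to Kitl, with 0.56, 0.62 and 0.74 within groups. Dppa3 followed Dazl (0.80, within groups 0.73), and Tfap2c followed Dnd1 (0.85, within groups 0.74) and Nectin3 (0.85, within groups 0.71). The highest r of Nanos3 with another of the genes was 0.48 and that of Kit was 0.22, while Kit and Dazl had -0.54. These values describe 12 libraries in 4 groups, with ET replicate 2 and WT replicate 1 among them.

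**Figure D4:**
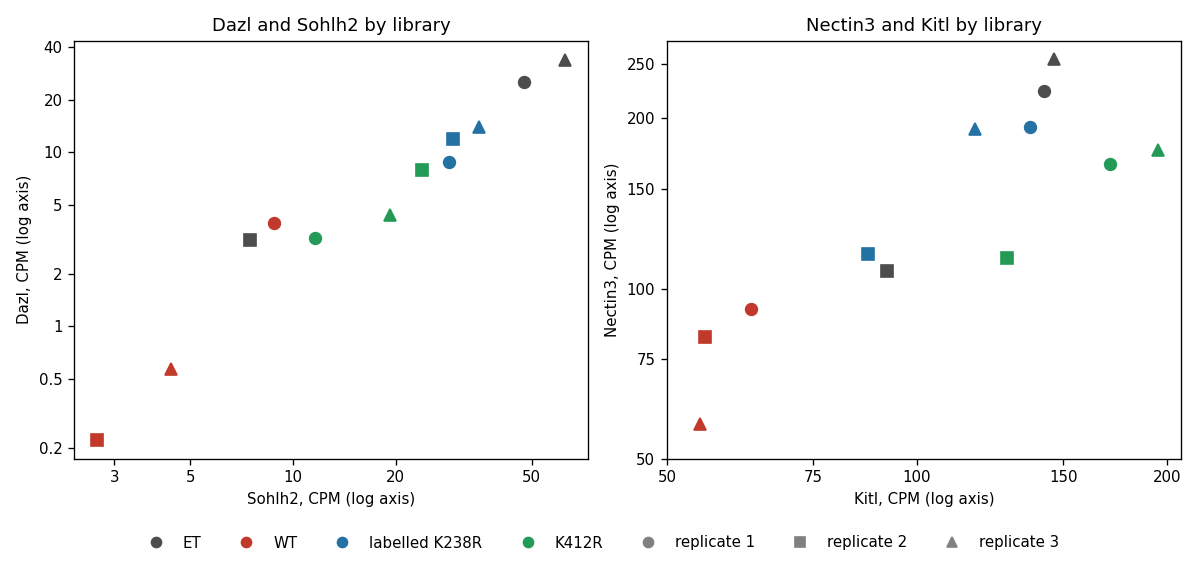
Dazl against Sohlh2 and Nectin3 against Kitl in the 12 libraries, in CPM on log axes, with colours for groups and marker shapes for replicates. Dazl and Sohlh2 run along 1 line from WT replicate 2 (0.223 and 2.68 CPM) to ET replicate 3 (34.0 and 62.5 CPM), with ET replicate 2 beside WT replicate 1; in the other panel the K412R points lie to the right of points with a like level of Nectin3.

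Of 16416 genes with a mean of at least 1 CPM, the 5 whose profile over the 12 libraries was most like that of Dazl were Sohlh2 (Pearson r 0.98), Tex14, Fmr1nb, Trap1a and Stra8 (0.97 each). Tex14 is a protein of the bridges between germ cells, and Stra8 the retinoic acid response gene of meiotic entry. Stra8 stood at 9.49, 1.77 and 12.1 CPM in ET and at 1.18, 0.06 and 0.06 in WT. For Kitl the 5 were Golim4 (0.99), Ric8b, Ptgfrn, Myo5c and Bche (0.98 to 0.97), and for Nectin3 they were Jam3, Son, Gpsm2, Spon1 and Kdm5a (0.98 each). Jam3 is another immunoglobulin-like adhesion protein.

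**Figure D5:**
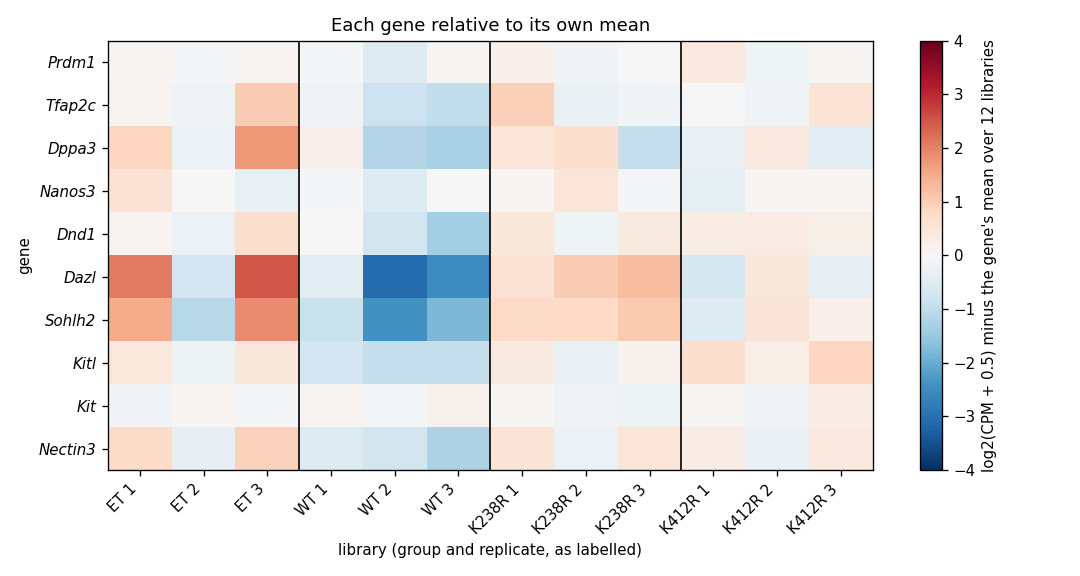
Each gene's log2(CPM + 0.5) in each library minus its own mean over the 12 libraries, as colour (red above, blue below), with groups divided by black lines; the K238R columns are the libraries labelled so. Dazl and Sohlh2 have the widest colour range, ET 2 is blue for them where ET 1 and ET 3 are red, and Kit and Prdm1 are pale in all libraries.

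Other germ cell genes were read from lists of known genes. Of 14 tested genes of germ cell specification and its signals, Ifitm3, an interferon-induced membrane protein of early germ cells and of many other tissues, was the only one past the adjusted threshold in any comparison. It rose in K412R against WT (log2 fold change 0.91 ± 0.19, adjusted p = 0.0381), from 74.0, 46.7 and 54.3 CPM in WT to 90.8, 136 and 105 in K412R. That threshold was passed by 2.02% of all genes there. By the 2-fold criterion 2 were lower in WT than in ET (2.78% of all genes), Lin28a (-1.74 ± 0.69) and Sall4 (-1.75 ± 0.56), both of which ES cells also express. In WT against ET, the libraries labelled K238R against WT and K412R against WT, 4, 2 and 3 had an unadjusted p under 0.05. The shares of all genes were 29.1%, 17.6% and 22.8%. DESeq2 called 2, 1 and 3 in the same order (10.3%, 4.27% and 9.0% of all genes). The median log2 fold change of this list was -0.19 in WT against ET, 0.12 in the libraries labelled K238R against WT and 0.22 in K412R against WT.

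Of 17 tested RNA-binding and later germ cell genes, none passed edgeR's adjusted threshold in any of the 6 comparisons. In the 3 comparisons with WT, in the order WT against ET, libraries labelled K238R and K412R, 8, 6 and 3 had an unadjusted p under 0.05 (29.1%, 17.6% and 22.8% of all genes) and DESeq2 called 4, 4 and 2 (10.3%, 4.27% and 9.0% of all genes). The last of these counts of unadjusted p, 3 of 17, lay below the share of all genes. The 2-fold criterion was met by 4 in WT against ET, all lower, by 5 in the libraries labelled K238R against WT, all higher, and by 2 in K412R against WT, both higher. In these directions it was met by 2.78%, 1.68% and 1.66% of all genes. Mov10l1, the RNA helicase of the piRNA pathway, had the largest of these differences, with -2.81 ± 0.61, 3.13 ± 0.61 and 2.37 ± 0.61 in that order (adjusted p = 0.099, 0.0698 and 0.0683). Rnf17, a Tudor-domain protein of germ cells, had 1.95 ± 0.42 and 1.42 ± 0.42 over WT, first for the libraries labelled K238R and then for K412R (adjusted p = 0.0879 and 0.0903). Zfp42, also a marker of naive ES cells, was lower in WT than in ET (-2.17 ± 0.94). Ddx4, the helicase that defines later germ cells and that is named here after its values were seen, lay between 1.60 and 7.67 CPM in all 12 libraries. Its log2 fold change was -0.54 ± 0.26 for WT against ET and 1.28 ± 0.26 for the libraries labelled K238R against WT (adjusted p = 0.189 and 0.0712).

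Of 10 tested genes of gonocytes, oocytes and spermatogonia, none passed edgeR's adjusted threshold in any of the 6 comparisons, while 6, 4 and 3 had an unadjusted p under 0.05 in the 3 comparisons with WT and DESeq2 called 2, 2 and 1. The shares of all genes were those given for the list before, 29.1%, 17.6% and 22.8% for unadjusted p and 10.3%, 4.27% and 9.0% for DESeq2. Stra8, Rhox6 and Rhox9 met the 2-fold criterion in WT against ET, lower (2.78% of all genes), and in the libraries labelled K238R against WT, higher (1.68%). Stra8 and Rhox6 did so in K412R against WT, higher (1.66%). Rhox6, a homeobox gene of placenta and germ cells, stood at 2.22, 0.18 and 5.06 CPM in ET against 0.62, 0.11 and 0.17 in WT, with 9.22, 3.39 and 4.13 for the libraries labelled K238R and 1.89, 1.75 and 1.96 for K412R. Its order thus differed from that of Dazl, with the libraries labelled K238R above ET in mean. The median log2 fold change of this list was -0.45 in WT against ET, 0.13 in the libraries labelled K238R against WT and 0.23 in K412R against WT.

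Genes that act with Kit differed little. Of 19 tested genes for adaptors, kinases, phosphatases and targets of Kit and for proteases that can release Kit ligand from the membrane, none passed edgeR's adjusted threshold in any comparison. In the 3 comparisons with WT the median log2 fold change was -0.07, -0.02 and 0.05, an unadjusted p under 0.05 was reached by 3, 2 and 5, and DESeq2 called 2, 0 and 1, no count above the share of all genes except 5 of 19 by unadjusted p in K412R against WT (22.8%) and 2 of 19 by DESeq2 in WT against ET (10.3%). Mmp9, a protease, was the only one past the 2-fold criterion in these, lower than WT in the libraries labelled K238R (-1.61 ± 0.70, adjusted p = 0.267) and in K412R (-1.70 ± 0.71, adjusted p = 0.183). That is 1 of 19 in each, near the share of all genes that met the criterion in either direction (5.28% and 5.05%). Of 7 other nectins and partner proteins, none passed either criterion by edgeR in these 3 comparisons. Unadjusted p under 0.05 was reached by 1, 0 and 2 (29.1%, 17.6% and 22.8% of all genes), and DESeq2 called 0, 0 and 1 (10.3%, 4.27% and 9.0%).

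Several of the 10 genes are also used outside germ cells, so marker lists of such cells were read beside them. The summed level of 11 genes of residual pluripotent cells was 229, 188 and 329 CPM in ET against 208, 119 and 105 in WT, with 237, 189 and 216 for the libraries labelled K238R and 205, 206 and 196 for K412R. Sox2, which neural tissue also expresses and which is named here after its values were seen, made up most of this sum in every library, with 97.3 to 182 CPM. In WT against ET 5 of the 11 met the 2-fold criterion, all lower (2.78% of all genes), 6 had an unadjusted p under 0.05 (29.1%), none passed the adjusted threshold (DESeq2 called 1, Nanog), and the median log2 fold change was -1.89. Nanog stood at 8.19, 10.1 and 17.7 CPM in ET and at 5.85, 0.95 and 0.68 in WT (-2.26 ± 0.62, adjusted p = 0.106), and Dppa2 differed by -2.76 ± 1.09. WT replicate 1 was the highest WT library for this list, as it was for Dazl, Sohlh2, Dppa3, Tfap2c, Dnd1, Kitl and Nectin3.

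Trophoblast markers, relevant to Tfap2c, summed to 6.54, 4.78 and 9.28 CPM in ET against 4.55, 1.51 and 2.28 in WT, with 29.0, 7.45 and 9.28 for the libraries labelled K238R and 7.19, 9.33 and 7.35 for K412R, over 10 genes of which 8 were tested. Prl3b1, a placental hormone, passed the adjusted threshold in K412R against WT (adjusted p = 0.0449), with 0.00, 0.11 and 0.00 CPM in WT and 0.61, 1.81 and 0.62 in K412R. It was the only 1 of the 8 to do so there, against 2.02% of all genes. The 2-fold criterion was met by 5 in WT against ET, lower (2.78% of all genes), Hand1 among them (-2.59 ± 1.05), and by 5 in the libraries labelled K238R against WT, higher (1.68%). Prl3d1, a further placental hormone, was among these and had no count in any WT library. In K412R against WT 2 met the criterion, both higher (1.66%). Unadjusted p under 0.05 was reached by 5, 5 and 2 of the 8 in the 3 comparisons with WT (29.1%, 17.6% and 22.8% of all genes). DESeq2 called 0, 5 and 2 in the same order (10.3%, 4.27% and 9.0%). Replicate 1 of the libraries labelled K238R was highest for this list and also for Tfap2c within its group.

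Keratinocyte markers, relevant to Prdm1 and Tfap2c, were higher in WT than in ET and lower in the libraries labelled K238R than in WT by their medians (0.73 and -0.67 on the log2 scale), with 0.09 and 4 genes up and 4 down in K412R against WT. Their sum over 8 genes was 135, 296 and 78.6 CPM in ET against 244, 297 and 322 in WT, with 98.7, 213 and 200 for the libraries labelled K238R and 276, 337 and 442 for K412R. ET replicate 2 was high here and low for Dazl and Sohlh2. Krt14 met the 2-fold criterion in WT against ET (1.08 ± 0.33, adjusted p = 0.111), and Krt14 and Krt5 met it in the libraries labelled K238R against WT (-1.07 ± 0.33 and -1.03 ± 0.38). The 2-fold criterion was met by 6.08% and 5.28% of all genes in these 2 comparisons, in either direction. None of the 8 passed edgeR's adjusted threshold in them. Unadjusted p under 0.05 was reached by 2 and 3 (29.1% and 17.6% of all genes), and DESeq2 called Krt14 in both (10.3% and 4.27%).

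Markers of other cells that carry Kit were read last. Of 8 mast cell genes only Hdc, the histamine-forming enzyme that other cells also use, was tested; it was higher in WT than in ET (1.32 ± 0.52) and lower in the libraries labelled K238R than in WT (-2.34 ± 0.55), short of the adjusted threshold in both by edgeR (0.136 and 0.0972 as adjusted p) but called by DESeq2 in the latter (adjusted p = 0.00111). Fcer1a, the mast cell receptor for IgE, named here after its values were seen, was at 0 in all libraries. Of 9 melanocyte genes 3 were tested, and none passed either criterion by edgeR in the comparisons with WT (0, 0 and 2 had an unadjusted p under 0.05, and DESeq2 called 0, 0 and 1), with sums between 35.4 and 89.1 CPM. The 4 markers of interstitial cells of Cajal summed to 140 to 208 CPM over the 12 libraries. The 6 of blood progenitors, of which 5 were tested, summed to 62.0 to 93.9 CPM. None of the tested genes of either list passed either criterion by edgeR in the comparisons with WT. An unadjusted p under 0.05 was reached by 3, 1 and 1 of the former and 0, 2 and 1 of the latter, and DESeq2 called 2 of the latter in the libraries labelled K238R against WT. For these lists and the melanocyte genes, the shares of all genes with an unadjusted p under 0.05 were 29.1%, 17.6% and 22.8%. Those called by DESeq2 were 10.3%, 4.27% and 9.0%. Of 4 tested genes of gonadal somatic cells, Gata4, which heart and gut also express, met the 2-fold criterion in K412R against WT (1.24 ± 0.43, adjusted p = 0.127 by edgeR). There 1.66% of all genes met it and were higher. DESeq2 called Gata4 in that comparison (adjusted p = 0.0458), against 9.0% of all genes. Unadjusted p under 0.05 was reached by 1, 0 and 2 of the 4 in the 3 comparisons with WT (29.1%, 17.6% and 22.8% of all genes). The part of these other cell types in the levels of the 10 genes was not tested.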

How the data were processed

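Poly(A) RNA of 12 teratomas, 3 per group, was sequenced with the CORALL kit. The authors used fastp for trimming, STAR for mapping and Salmon for quantification (build GRCm39; the paper refers to its source data for versions, which were not used here), and deposited estimated counts per gene symbol, whole and not scaled. The labels also name GATK, without a role. Whether molecular identifiers were used is not given. The RNA Gm26917 took 7.47% to 13.9% of a library.

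CPM was computed from library totals. The 10 genes and all lists were chosen with earlier results of these data known. Genes outside the 10 were named if past an adjusted p under 0.05 in any comparison, or among the 2 with the largest fold change past the 2-fold criterion in a comparison with WT, or among the 5 most correlated with Dazl, Kitl or Nectin3. The text states which name falls outside this rule. edgeR 4.0.16 (TMM scaling, filterByExpr, quasi-likelihood test) took in all 12 libraries, with a mean for each group, and p-values were Benjamini-Hochberg adjusted over 18405 genes; the study used DESeq2, run here as an alternative (version 1.42.0). The fit was tested on simulated counts. Other alternatives were RLE scaling, no filter, a CPM filter, 2 groups alone, a replicate block, robust estimation and left-out libraries. Pearson correlations carry no p-value. Promoters came from RefSeq (GRCm38.p6).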

Additional observations from a re-analysis of the deposited data

How the results depend on the processing

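The counts of the 10 genes past an adjusted p under 0.05 by edgeR were 0 in WT against ET, 0 in the libraries labelled K238R against WT and 1 in K412R against WT. With DESeq2 they were 4, 3 and 2, and in fits of 2 groups alone 0, 2 and 3. With no filter on low counts they were 4, 2 and 1. RLE scaling, the CPM filter and robust estimation left them at 0, 0 and 1. With each library left out in turn they ranged from 0 to 6, 0 to 4 and 0 to 3, and without both ET replicate 2 and WT replicate 1 they were 7, 5 and 5, with 2 in K412R against ET. The 2-fold criterion was met by 3 to 7, 2 to 6 and 2 to 7 genes over the fits that left out a library. Shares of all genes were taken only for the edgeR fit of all 12 libraries and for DESeq2. For the other fits, the counts cannot show whether the 10 genes moved more than the rest. Why the counts changed was not tested.

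The edgeR fit of all 12 libraries did not treat replicate numbers as pairs. Deviations of same-numbered libraries from their group means correlated between -0.33 and 0.48, with a median of 0.10 and 9 of 18 pairs above 0.1. Libraries with different numbers had a median of -0.068 and 8 of 36 pairs above 0.1. In all, 6 of 12 libraries were closest to one with their own number. These values cannot exclude a weak pairing by number. The fit with a replicate block called 3 genes in WT against ET (Kitl, Nectin3 and Sohlh2), 1 in the libraries labelled K238R against WT and 1 in K412R against WT (Kitl in both), and none in the other comparisons.

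Of 60 log2 fold changes (10 genes, 6 comparisons), 20 changed sign in some alternative, all with an unadjusted p of at least 0.05 in both fits and a size of at most 0.40 with all libraries. Prdm1 in the libraries labelled K238R against ET went from -0.0046 to 0.009 with the CPM filter and 0.0028 with 2 groups alone. With libraries left out, log2 fold changes ranged as follows. In WT against ET, Prdm1 had -0.33 to 0.0018. In the libraries labelled K238R against WT, Prdm1 had -0.0063 to 0.33. In K412R against WT, Nanos3 had -0.0459 to 0.36 and Kit -0.11 to 0.047. In the libraries labelled K238R against ET, Prdm1 had -0.0932 to 0.0606, Tfap2c -0.69 to 0.34, Nanos3 -0.19 to 0.49, Dnd1 -0.24 to 0.35, Kit -0.14 to 0.014, Sohlh2 -0.84 to 0.17 and Nectin3 -0.54 to 0.0023. In K412R against ET, Prdm1 had -0.10 to 0.21, Tfap2c -0.50 to 0.21, Nanos3 -0.49 to 0.16 and Dnd1 -0.14 to 0.45. In K412R against the libraries labelled K238R, Dppa3 had -0.90 to 0.0303, Prdm1 -0.10 to 0.21, Tfap2c -0.35 to 0.42, Dnd1 -0.0799 to 0.25 and Nectin3 -0.31 to 0.0456. Taking Gm26917 out of the totals raised the group means of CPM by 1.10 to 1.14 times. At 2 to 81 counts a library, differences in Dppa3, Dnd1 and Nanos3 of the sizes seen are not measured precisely.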
